A study of Mus musculus with 15 samples.

Results

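Lox, Loxl1, Loxl2, Loxl3, Loxl4, Sparc and Sparcl1 are 7 of the 49315 genes in the count table: the 5 lysyl oxidases of the mouse, the collagen-binding glycoprotein Sparc and its relative Sparcl1. They were chosen by their counts in siSirt1 against siCtrl, where Lox, Loxl1 and Sparc were lower, so the values of these genes in that comparison are given as a description, with no test. RNA came from primary myoblasts of C57BL/6J mice, derived from muscle and of WT genotype. Each of 5 lines, here given the replicate numbers 1, 2, 3, 4 and 7 of the labels, was transfected with small interfering RNA by the lipid reagent siRNAiMax and left to differentiate for 1 day. That libraries with the same number came from the same line was inferred. The 3 groups of 5 libraries were siSirt1, directed at the deacetylase gene Sirt1, siLmod1, directed at the actin-nucleator gene Lmod1, and siCtrl, the control small interfering RNA that also went through transfection. Every group was wild type apart from the knockdown, and the labels do not give the animals or siRNA sequences behind the lines. The study asked which early transcripts of myogenic differentiation depended on each target.

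Lysyl oxidases are secreted copper-dependent enzymes that oxidise lysine side chains of collagens and elastin, from which covalent cross-links then form between fibres. Lox and Loxl1 carry a propeptide that is removed by procollagen C-proteinases such as Bmp1, whereas Loxl2, Loxl3 and Loxl4 carry scavenger receptor domains in front of the same catalytic domain. Sparc, also called osteonectin, binds collagens in the secretory pathway and in the matrix and takes part in their assembly, and Sparcl1, also called hevin, is its closest relative. In muscle, the matrix these proteins help build surrounds each fibre, and myogenic cells as well as fibroblasts express genes of both families.

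The catalytic domain carries a copper-binding motif with 4 histidines, and the coding bases of that motif are shown because related enzymes could share reads there and because the supply of copper is followed among the gene lists. The 36 bases of each gene below come from GRCm38 (mm10) transcripts of the GENCODE M21 annotation and each crosses an exon junction. They lie at chr9:58293717-58294381 on the minus strand in exons 3 and 4 of Loxl1, at chr14:69682316-69689040 on the plus strand in exons 10 and 11 of Loxl2, at chr6:83049995-83050128 on the plus strand in exons 10 and 11 of Loxl3, and at chr19:42598804-42599899 on the minus strand in exons 11 and 12 of Loxl4. The genes themselves span chr9:58287738-58313186 (Loxl1, ENSMUSG00000032334), chr14:69609068-69695834 (Loxl2, ENSMUSG00000034205), chr6:83034173-83052562 (Loxl3, ENSMUSG00000000693), chr19:42593982-42612813 (Loxl4, ENSMUSG00000025185), chr11:55394500-55423183 (Sparc, ENSMUSG00000018593, minus strand) and chr5:104079111-104113733 (Sparcl1, ENSMUSG00000029309, minus strand). The position and bases of Lox are not reported here. Capitals mark the 4 histidine codons.
Loxl1: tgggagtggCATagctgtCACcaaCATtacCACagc
Loxl2: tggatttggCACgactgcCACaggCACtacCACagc
Loxl3: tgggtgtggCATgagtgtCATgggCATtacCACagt
Loxl4: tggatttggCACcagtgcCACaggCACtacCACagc
Against Loxl1, 25 of the 36 bases were the same in Loxl2, 27 in Loxl3 and 24 in Loxl4. Between whole transcripts, the longest exact run shared by any pair of the 7 genes ran from 12 to 41 bases, against the 150-base reads the labels give. The counts of the members were therefore treated as separate from each other. Overlapping genes on the opposite strand are another matter, since the library kit named in the labels does not mark strand and reads in shared exons cannot be told apart. Loxl3 shares 535 exon bases with Htra2, a mitochondrial protease gene with 29795 counts over the 15 libraries. Loxl2 shares 301 with the antisense gene Gm27177, which had 8 counts, and Lox shares 30 with an antisense transcript not analysed here.

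Total counts ran from 21004908 to 27815744 in siSirt1, from 27135398 to 31829009 in siLmod1 and from 26097889 to 33601761 in siCtrl, so that 3 counts corresponded to 0.0893 to 0.143 CPM, the unit of counts scaled to library size. Both knockdowns were seen in their own target. Sirt1 averaged 6.21 ± 3.33 CPM in siSirt1, 38.6 ± 10.1 CPM in siLmod1 and 26.4 ± 7.04 CPM in siCtrl, and Lmod1 averaged 3.51 ± 1.57 CPM in siLmod1 against 30.6 ± 16.2 CPM in siCtrl (SD, n = 5 each). Lmod1 was also below siCtrl in siSirt1, at 16.6 ± 11.8 CPM. In edgeR's quasi-likelihood test with the line as a block, Sirt1 fell in siSirt1 (log2 fold change -2.18, adjusted p = 0.00272) and Lmod1 fell in siLmod1 (-3.07, adjusted p = 2.8e-06). Neither passed without the block (adjusted p = 0.0735 and 0.0685). The other target differed as well with the block, in 5 of 5 lines each. Lmod1 was lower in siSirt1 (-0.96, adjusted p = 0.0271) and Sirt1 was higher in siLmod1 (0.54, adjusted p = 1.4e-04), each against siCtrl. Without the block these had adjusted p = 0.716 and 0.514. Of the libraries, the 3 of line 4 stood apart on the first principal component, and the siSirt1 library of line 7 stood apart on the second. The siSirt1 library of line 1 correlated least with the other libraries of its line. Its deviations from the group mean gave r = 0.278 with the siCtrl and 0.304 with the siLmod1 library of line 1. With the siCtrl library of line 3 the value was 0.268, so its place in line 1 is only weakly borne out. Myoblast and myocyte markers, 10 of 10 with a mean of at least 1 CPM in each group, summed to a median of 18200 CPM in siSirt1, 20200 CPM in siLmod1 and 21900 CPM in siCtrl, so the labelled cell type was borne out. Of the 8 fibroblast markers, 4 averaged at least 1 CPM in siSirt1, 2 in siLmod1 and 2 in siCtrl. Pdgfra and Thy1 were at 0 in none of the 15 libraries and Lum was at 0 in 14, and the 8 together summed to 2.23 to 22.9 CPM in siSirt1, 3.24 to 6.1 CPM in siLmod1 and 4.84 to 15.8 CPM in siCtrl. In bulk RNA, fewer cells of a type and less RNA per cell cannot be told apart.

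Sparc was by far the most abundant of the 7 transcripts. Per length, it averaged 1089 ± 599 TPM, a unit scaled to gene length and library size, in siSirt1, 1091 ± 265 TPM in siLmod1 and 1434 ± 364 TPM in siCtrl, which placed it at rank 91, 92 and 70 among all genes. Loxl1 came next, with 33.2 ± 14.5 TPM in siSirt1, 77.0 ± 32.5 TPM in siLmod1 and 75.3 ± 33.5 TPM in siCtrl (SD, n = 5). Lox, Loxl3 and Sparcl1 followed, and their order cannot be set: in siCtrl they averaged 12.1 ± 6.98, 7.20 ± 4.22 and 5.07 ± 0.76 TPM, each within the spread of its neighbour. Loxl4 averaged 1.94 ± 1.30 TPM in siSirt1, 1.54 ± 1.36 TPM in siLmod1 and 1.70 ± 1.19 TPM in siCtrl. Loxl2 was all but absent, with 28 counts in siSirt1, 5 in siLmod1 and 37 in siCtrl over 5 libraries each. Its counts were 2, 0, 13, 11 and 2 in siSirt1, 0, 0, 1, 4 and 0 in siLmod1 and 0, 2, 25, 7 and 3 in siCtrl, for lines 1, 2, 3, 4 and 7. Loxl2 was the 1 member that did not pass the filter on low counts.

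Loxl1 was therefore the main lysyl oxidase transcript of these cells. It made up 67.0 ± 10.1% of the summed TPM of the 5 enzymes in siSirt1, 81.4 ± 9.66% in siLmod1 and 76.2 ± 12.9% in siCtrl. That sum was 50.5 ± 23.3 TPM in siSirt1, 92.2 ± 33.2 TPM in siLmod1 and 96.5 ± 39.0 TPM in siCtrl. Loxl3, an enzyme needed for palate and cartilage development in the mouse, took 16.9 ± 7.50% of the sum in siSirt1, 6.45 ± 2.98% in siLmod1 and 7.42 ± 3.42% in siCtrl. A share also depends on the sum, which was lower in siSirt1. Loxl3 itself averaged 9.50 ± 8.62 TPM in siSirt1, 5.66 ± 3.09 TPM in siLmod1 and 7.20 ± 4.22 TPM in siCtrl. Line 4 differed from the rest in its make-up in siCtrl and siLmod1. Its siCtrl library held the lowest family sum of the group, at 44.8 TPM, with the lowest Loxl1 share, at 56.4%, and the highest Lox share, at 29.6%. In siLmod1 line 4 held the same places, at 37.3 TPM, 69.4% and 13.5%. In siSirt1 it did not: line 2 had the lowest sum, at 26.0 TPM. There line 1 had the lowest Loxl1 share, at 55.8%, and the highest Lox share, at 22.3%.

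**Figure D1:**
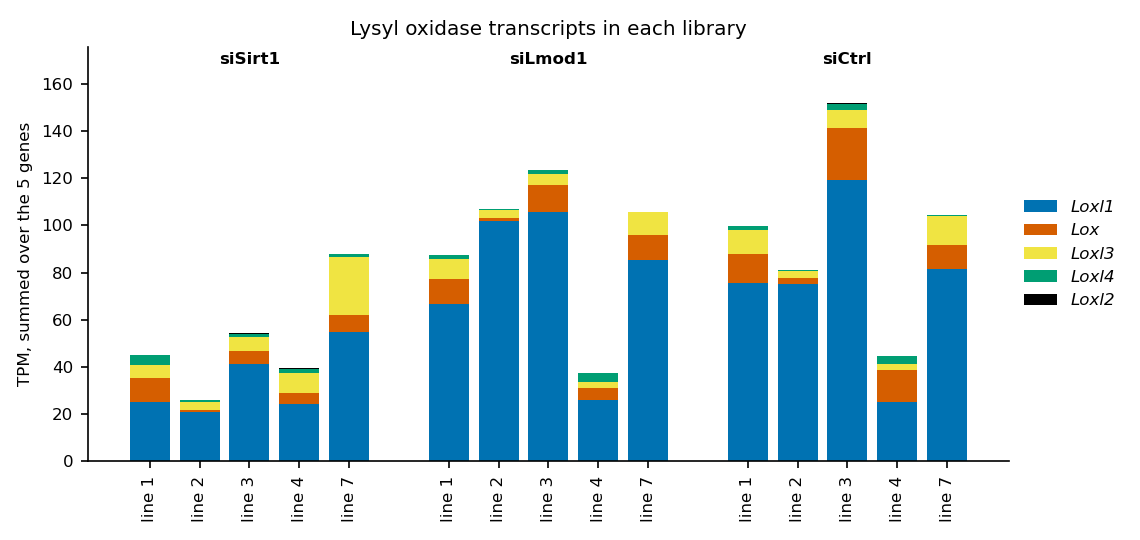
TPM of the 5 lysyl oxidase genes stacked for each library, with siSirt1 at the left, siLmod1 in the middle and siCtrl at the right. Bars start at 0, and the sum runs from 26.0 to 87.9 TPM in siSirt1, from 37.3 to 123 TPM in siLmod1 and from 44.8 to 152 TPM in siCtrl, with Loxl1 as the largest piece of every bar.

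Loxl1, the enzyme best known for maintaining elastic fibres, was lower in siSirt1 than in siCtrl in 5 of 5 lines. It stood at 23.1, 21.9, 40.1, 23.4 and 50.5 CPM in siSirt1, 69.7, 109, 104, 28.6 and 91.1 CPM in siLmod1, and 79.0, 86.0, 118, 29.5 and 88.0 CPM in siCtrl, in the order of lines 1, 2, 3, 4 and 7. All 5 siSirt1 values lay below the siCtrl values of lines 1, 2, 3 and 7. The groups overlapped because the siCtrl value of line 4 lay below the siSirt1 values of lines 3 and 7. The fitted log2 fold change of siSirt1 over siCtrl was -1.30 (SE 0.36), which is 2.47-fold lower, and -1.27 (SE 0.24) with the line as a block. Leaving out each line in turn moved the blocked value between -1.51 and -1.10.

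Lox, the founding enzyme of the family and a cross-linker of fibrillar collagens and elastin, was also lower in siSirt1 in 5 of 5 lines. Its level was 13.4, 1.88, 8.05, 6.71 and 9.68 CPM in siSirt1, 16.4, 2.44, 16.6, 8.09 and 17.1 CPM in siLmod1, and 19.2, 4.34, 31.8, 22.5 and 15.8 CPM in siCtrl, in the order of lines 1, 2, 3, 4 and 7. Line 2 was low in all 3 groups, and the groups overlapped. The log2 fold change of siSirt1 over siCtrl was -1.21 (SE 0.55), and -1.20 (SE 0.24) with the block. Without each line in turn it lay between -1.41 and -1.0.

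Sparc completed the set on which the choice rested. It stood at 768, 720.4, 717, 1968 and 1821 CPM in siSirt1, 1275, 1033, 951, 1654 and 1741 CPM in siLmod1, and 1731, 1241, 1397, 2459 and 2135 CPM in siCtrl. Lines 1, 2 and 3 in siSirt1 lay below every other library, whereas lines 4 and 7 lay within the range of the other groups, so that the siSirt1 values were split into a low and a high part. The log2 fold change of siSirt1 over siCtrl was -0.55 (SE 0.36), and -0.67 (SE 0.16) with the block. Without each line in turn the blocked value lay between -0.79 and -0.56.

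**Figure D2:**
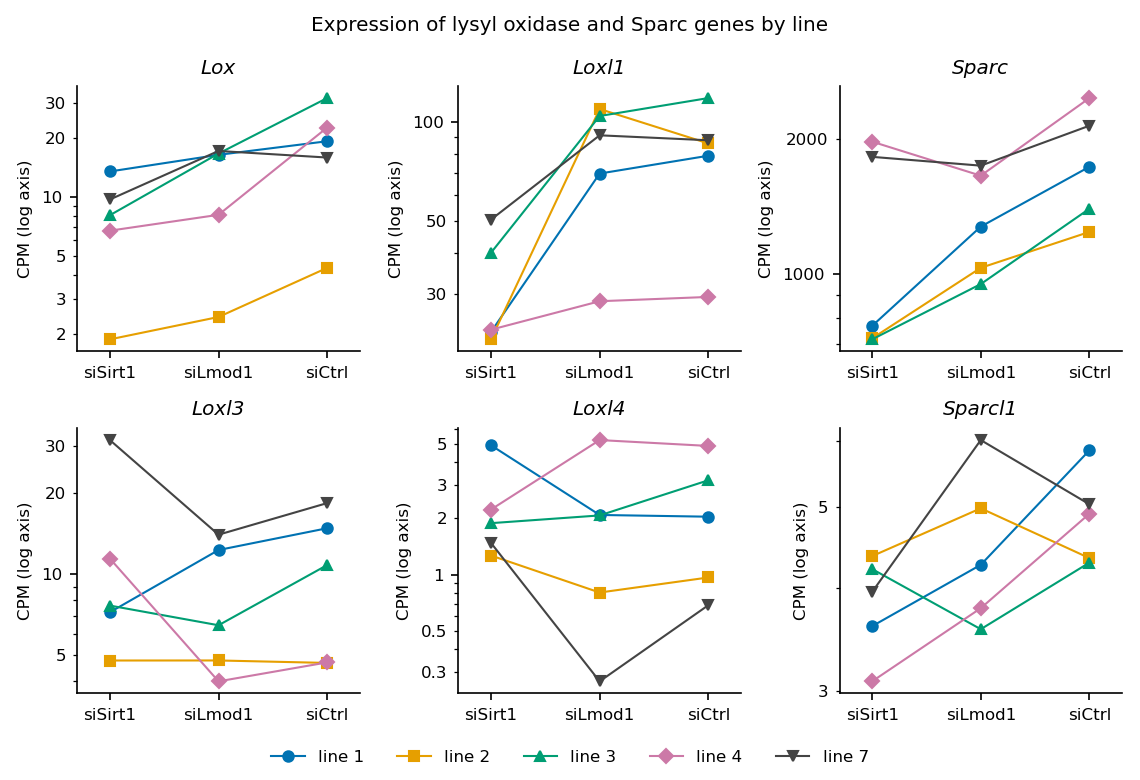
CPM on log axes of the 6 members that passed the filter, with siSirt1, siLmod1 and siCtrl from left to right and 1 point and connecting line for each of the 5 lines. Loxl1 lies at 21.9 to 50.5 CPM in siSirt1, while siLmod1 and siCtrl differ within a line by at most 0.35 on the log2 scale, and Sparc in siSirt1 splits into 717 to 768 CPM in lines 1, 2 and 3 and 1821 to 1968 CPM in lines 4 and 7.

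The size of these differences varied between lines. Loxl1 in siSirt1 minus siCtrl was at -1.77, -1.97, -1.56, -0.33 and -0.80 on the log2 CPM scale in lines 1, 2, 3, 4 and 7, and Sparc was at -1.17, -0.78, -0.96, -0.32 and -0.23. Both were thus smaller in lines 4 and 7 than in the other lines. Lox went otherwise, at -0.51, -1.21, -1.98, -1.75 and -0.71, with line 4 among its largest differences. Sirt1 itself was lower by the least in lines 4 and 7, with differences of -2.59, -2.39, -2.64, -1.44 and -2.02. No correlation is given over 5 lines, and whether the depth of the knockdown had a part in the size of the other differences was not tested.

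**Figure D3:**
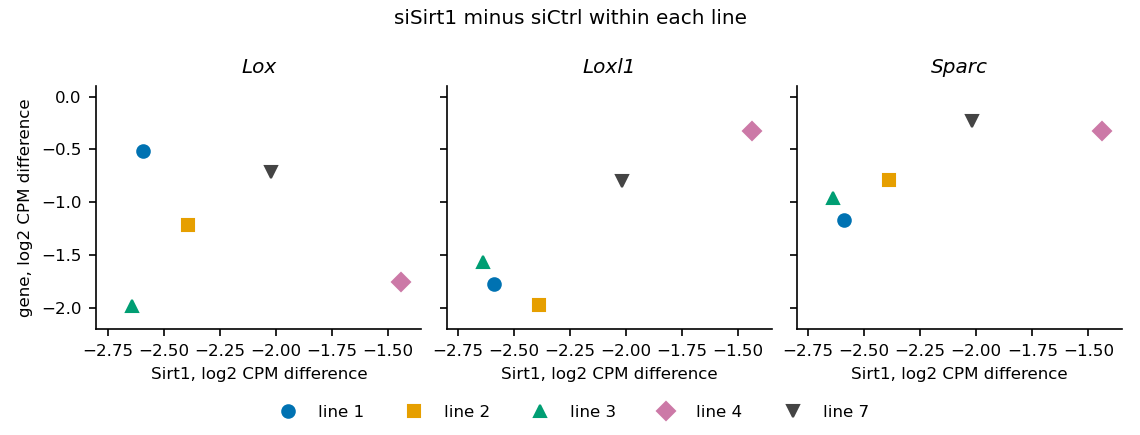
Difference of siSirt1 minus siCtrl within each line on the log2 CPM scale, with Sirt1 on the horizontal axis and Lox, Loxl1 or Sparc on the vertical axis, 1 point per line. Lines 4 and 7 sit at the right, with Sirt1 at -1.44 and -2.02, and have the smallest differences of Loxl1 (-0.33 and -0.80) and Sparc (-0.32 and -0.23), but not of Lox.

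Loxl3, Loxl4 and Sparcl1 showed no common direction in siSirt1. Loxl3 stood at 7.22, 4.77, 7.64, 11.4 and 31.6 CPM in siSirt1 and at 14.8, 4.67, 10.8, 4.70 and 18.4 CPM in siCtrl, lower in lines 1 and 3 and higher in lines 2, 4 and 7. Loxl4, the least expressed of the enzymes that passed the filter, stood at 4.91, 1.26, 1.88, 2.23 and 1.48 CPM in siSirt1 and at 2.04, 0.96, 3.19, 4.87 and 0.69 CPM in siCtrl, lower in 2 lines and higher in 3. Sparcl1 stood at 3.59, 4.36, 4.21, 3.08 and 3.95 CPM in siSirt1 and at 5.85, 4.34, 4.29, 4.91 and 5.04 CPM in siCtrl. It was lower in 4 of 5 lines, in line 3 by 0.03 on the log2 scale. The blocked log2 fold changes were 0.14 (95% interval -0.62 to 0.89) for Loxl3, 0.16 (-0.78 to 1.09) for Loxl4 and -0.32 (-0.76 to 0.12) for Sparcl1. Leaving out a line moved Loxl3 between -0.16 and 0.42 and Loxl4 between -0.17 and 0.50.

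In siSirt1 against siCtrl, edgeR without a block called none of the 6 members that passed the filter, beside 0.127% of 14912 genes, 0.0134% higher and 0.114% lower, and 1440 of the 14912 had an unadjusted p under 0.05. With the block, 3 members were on the lower side of the threshold, Lox, Loxl1 and Sparc, beside 7.07% of all genes in either direction and 4.35% lower. Since the genes were chosen for this difference, nothing is read from that count.

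In siLmod1 against the same controls, Sparc, Lox and Loxl3 were called with the line as a block. Sparc fell in siLmod1, below siCtrl in 5 of 5 lines by 0.26 to 0.57 on the log2 scale, with a blocked log2 fold change of -0.43 (SE 0.06, edgeR adjusted p = 7.3e-04). Lox fell as well once the line was a block, with -0.66 (SE 0.20, adjusted p = 0.0276), lower in 4 of 5 lines and higher by 0.11 in line 7. Loxl3 stood at 12.3, 4.77, 6.46, 3.99 and 14.0 CPM in siLmod1, lower than siCtrl in 4 of 5 lines, with a blocked value of -0.35 (SE 0.11, adjusted p = 0.0432). The siCtrl libraries in this comparison are those that took part in choosing the genes. A choice for siSirt1 below siCtrl favours genes with high siCtrl values. The adjusted p of Lox and Sparc are therefore tilted towards a fall in siLmod1 and are not an independent test.

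Loxl1, Loxl4 and Sparcl1 were not called in siLmod1. For Loxl1 the blocked log2 fold change in siLmod1 was -0.01 (95% interval -0.18 to 0.16, edgeR adjusted p = 0.956), and the within-line differences ran from -0.18 to 0.35. Loxl4 stood at 2.08, 0.80, 2.07, 5.24 and 0.27 CPM in siLmod1 and had a blocked value of -0.30 (95% interval -0.75 to 0.16, adjusted p = 0.314). Sparcl1 stood at 4.26, 4.98, 3.56, 3.78 and 6.02 CPM in siLmod1, with a blocked value of -0.13 (-0.46 to 0.19, adjusted p = 0.534).

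The calls in siLmod1 depended on how the libraries were fitted. Without the block edgeR called 0 members, beside 0.113% of 15022 genes (1351 at an unadjusted p under 0.05), and the adjusted p was 0.678 for Sparc, 0.843 for Lox and 0.916 for Loxl3. With the block it called 3 of 6 members, all lower, beside 29.5% of all genes and 16.5% lower, and DESeq2 with the block called the same 3. In a blocked fit over all 15 libraries none of them was called (adjusted p = 0.082 for Sparc, 0.0707 for Lox and 0.546 for Loxl3). Sparc was called without each line in turn, with adjusted p from 9.5e-04 to 0.00689. Lox was not called without line 2 (0.0726), line 3 (0.0968) or line 4 (0.0595, log2 fold change -0.43), and Loxl3 was not called without line 1 (0.119), line 3 (0.15) or line 7 (0.116). Htra2, which overlaps Loxl3, fell in siLmod1 too, to 60.7 ± 8.58 CPM against 83.0 ± 12.1 CPM in siCtrl (blocked log2 fold change -0.46, adjusted p = 4.8e-04). What part reads of Htra2 have in the Loxl3 value was not tested.

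**Figure D4:**
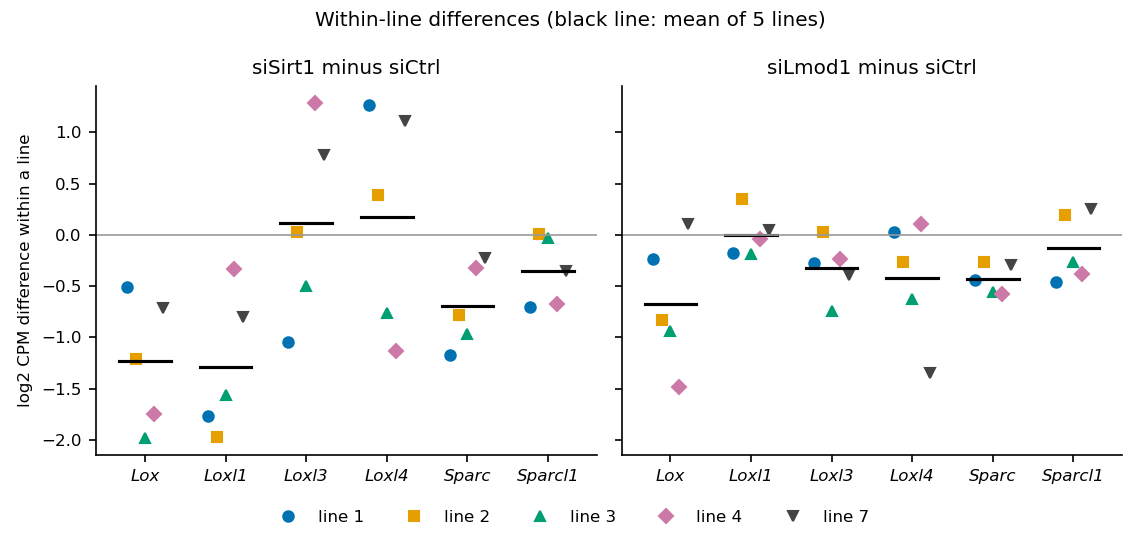
Within-line differences in log2 CPM for the 6 members that passed the filter, siSirt1 minus siCtrl at the left and siLmod1 minus siCtrl at the right, with 1 point per line and a black bar at the mean of the 5 lines. Loxl1 lies between -1.97 and -0.33 in siSirt1 and between -0.18 and 0.35 in siLmod1, while all 5 points of Sparc are below 0 in both.

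The siSirt1 and siLmod1 libraries were also set against each other, which for Lox, Loxl1 and Sparc again uses the siSirt1 libraries that chose them. Loxl1 was lower in siSirt1 than in siLmod1 in 5 of 5 lines, by 0.29 to 2.32 on the log2 scale, with a blocked log2 fold change of -1.27 (95% interval -1.86 to -0.68). Lox was lower in 5 of 5 lines, with a blocked value of -0.55 (-0.93 to -0.16). Sparc was lower in lines 1, 2 and 3 and higher in lines 4 and 7, with -0.25 (-0.61 to 0.11). For the members outside the choice, edgeR with the block gave 0.45 for Loxl3 (95% interval -0.28 to 1.19, adjusted p = 0.369), 0.49 for Loxl4 (-0.61 to 1.59, adjusted p = 0.522) and -0.20 for Sparcl1 (-0.64 to 0.24, adjusted p = 0.51). None of these passed, and the intervals are wide enough to hold a log2 difference of 1 for Loxl3 or Loxl4. Without the block 0 members were called, beside 1.53% of 14998 genes, 0.68% higher and 0.847% lower, and 2475 of the 14998 had an unadjusted p under 0.05. With the block 15.9% of all genes were called, 8.43% lower. Since the siSirt1 libraries chose Lox, Loxl1 and Sparc, whether these passed with the block is not given.

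Genes that act on the same matrix were followed in 5 lists of 53 genes in all. These were chosen with earlier results of these data known, so the adjusted p of their genes are not an independent test. The lists cover the hydroxylation and folding of procollagen, the activation of lysyl oxidases and the scaffold they bind, copper supply, the collagens and elastin that are their substrates, and other genes related to Sparc. Without the block edgeR called 1 list gene in the 3 comparisons, Tgm2 in siSirt1 against siLmod1. The counts below are those of edgeR with the block, to be read beside 2.72% of genes higher and 4.35% lower in siSirt1 against siCtrl, 12.9% higher and 16.5% lower in siLmod1 against siCtrl, and 7.43% higher and 8.43% lower in siSirt1 against siLmod1. The median log2 fold change of all genes tested was 0.01, -0.01 and 0.01 in these comparisons.

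Collagens, the substrates of the enzymes, were lower in siLmod1. Of the 7 collagen genes tested, 7 fell in siLmod1 against siCtrl, with a median log2 fold change of -0.79, and 0 were called in siSirt1 against siCtrl, with a median of -0.24 (DESeq2 with the block called 1, Col5a2). Col3a1, a fibrillar collagen, averaged 186 ± 79.5 CPM in siLmod1 against 369 ± 160 CPM in siCtrl (blocked log2 fold change -0.95, SE 0.10, edgeR adjusted p = 1.3e-04). Its level in siSirt1 was 443 ± 246 CPM, higher than in siLmod1 in 5 of 5 lines (1.12, SE 0.18, adjusted p = 0.00757), and it was the 1 collagen whose difference between the knockdowns passed, to which the blocked fit over all 15 libraries added Col4a1. Col4a1, a collagen of basement membranes, averaged 128 ± 91.9 CPM in siLmod1 against 277 ± 211 CPM in siCtrl (-1.05, SE 0.12, adjusted p = 2.7e-04). Elastin did not pass the filter on low counts, with a mean of 0.19 CPM in siSirt1, 0.04 CPM in siLmod1 and 0.04 CPM in siCtrl. Leaving out a line kept 5 to 7 of the 7 calls in siLmod1, and the blocked fit over all 15 libraries kept 1, Col3a1.

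Among the 17 tested genes of procollagen hydroxylation and folding, 0 rose and 2 fell in siSirt1 against siCtrl, Plod2 and P3h1. Plod2, the lysyl hydroxylase of collagen telopeptides whose product is a preferred start of cross-links, averaged 144 ± 38.7 CPM in siSirt1 against 280.5 ± 147 CPM in siCtrl and was lower in 5 of 5 lines (blocked log2 fold change -0.85, SE 0.12, edgeR adjusted p = 0.01). It was also lower in siSirt1 than in siLmod1, at 242 ± 66.1 CPM (-0.72, SE 0.09, adjusted p = 0.00372). P3h1, a prolyl 3-hydroxylase, averaged 46.9 ± 7.93 CPM in siSirt1 against 64.2 ± 15.9 CPM in siCtrl (-0.41, SE 0.09, adjusted p = 0.0329). Plod2 was called without each line in turn, P3h1 only without line 1. In siLmod1 against siCtrl, 3 genes of this list fell, beside 16.5% of all genes, and 0 rose: Serpinh1, the collagen chaperone, at -0.31 (adjusted p = 0.00658), Fkbp10, which folds procollagen and binds Plod2, at -0.26 (adjusted p = 0.0107), and P4ha3, a prolyl 4-hydroxylase subunit, at -1.15 (adjusted p = 0.0115). The blocked fit over all 15 libraries called 0 of these 3, and Fkbp10 was not called without line 7. P4ha3 was scarce, at 0.92 ± 0.89 CPM in siLmod1 against 1.89 ± 1.32 CPM in siCtrl. The list medians were -0.10 in siSirt1 and -0.14 in siLmod1, each against siCtrl.

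**Figure D5:**
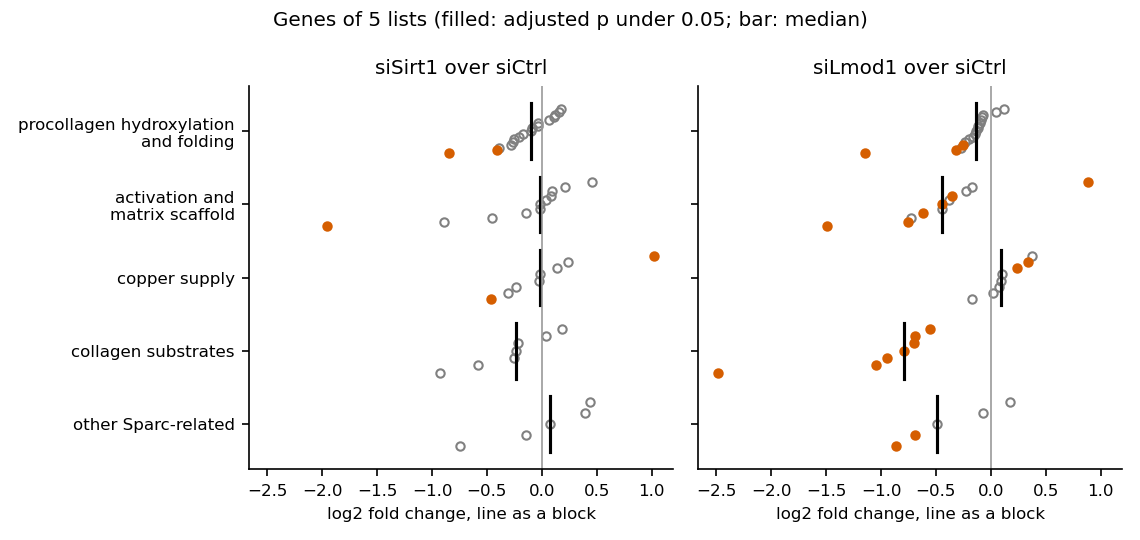
Log2 fold change with the line as a block for the genes of the 5 lists, siSirt1 over siCtrl at the left and siLmod1 over siCtrl at the right. Each point is a gene, filled where the edgeR adjusted p is under 0.05, and bars mark list medians; the 7 collagens all lie below 0 and are filled in siLmod1, and Tgm2 lies at -1.96 in siSirt1 and at 0.89 in siLmod1.

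Tgm2 moved in opposite directions in the knockdowns. It encodes transglutaminase 2, which forms another kind of covalent cross-link between matrix proteins. It averaged 3.51 ± 2.31 CPM in siSirt1, 22.6 ± 3.98 CPM in siLmod1 and 13.0 ± 5.58 CPM in siCtrl. The blocked log2 fold change was -1.96 (SE 0.20, edgeR adjusted p = 0.00411) in siSirt1 and 0.89 (SE 0.15, adjusted p = 0.00215) in siLmod1, each against siCtrl and in 5 of 5 lines. Between the knockdowns it was -2.86 (SE 0.28, adjusted p = 0.00156), and -2.67 without the block (adjusted p = 0.0167). It was the 1 gene called in siSirt1 among the 11 tested for activation and scaffold.

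In siLmod1, 1 gene of that list rose, Tgm2, and 5 fell. Bmp1, the proteinase that removes the Lox propeptide, averaged 34.1 CPM in siLmod1 against 50.3 CPM in siCtrl (blocked log2 fold change -0.61, SE 0.10, edgeR adjusted p = 0.00193). Pcolce, which enhances that proteinase, was at -0.44 (adjusted p = 0.00142), fibronectin (Fn1) at -0.36 (adjusted p = 0.0161), and Adamts2, a procollagen N-proteinase, at -1.49 (adjusted p = 8.2e-04). Adamts2 was scarce, at 1.07 ± 0.61 CPM in siLmod1 against 3.09 ± 2.05 CPM in siCtrl. Fbln5, the fibulin that binds Loxl1 and tethers it to elastic fibres, averaged 18.6 ± 6.41 CPM in siSirt1, 20.5 ± 6.67 CPM in siLmod1 and 34.4 ± 9.60 CPM in siCtrl. It fell in siLmod1 (-0.76, adjusted p = 0.0133), and in siSirt1 it was below siCtrl in 5 of 5 lines without passing the test (-0.89, SE 0.29, adjusted p = 0.108), though DESeq2 with the block and the blocked edgeR fit over all 15 libraries called it. Bmp1, Adamts2 and Postn, the scaffold protein periostin, were higher in siSirt1 than in siLmod1 (0.65, 1.67 and 1.23, adjusted p = 0.0358, 0.0318 and 0.049). None of these 3 was called without line 1, 3 or 4, Adamts2 was not called without line 2, and Bmp1 and Postn were not called without line 7. The blocked fit over all 15 libraries called Tgm2, Bmp1 and Adamts2 in siLmod1 against siCtrl and not the other 3, of which Fn1 and Fbln5 were also not called without line 1.

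Of the 8 copper genes, 1 rose and 1 fell in siSirt1 against siCtrl. Slc31a1, the main copper importer of the plasma membrane, averaged 54.1 ± 7.44 CPM in siSirt1, 82.0 ± 12.8 CPM in siLmod1 and 76.1 ± 11.2 CPM in siCtrl, with a blocked log2 fold change of -0.47 in siSirt1 against siCtrl (SE 0.09, edgeR adjusted p = 0.0214) and lower in 5 of 5 lines. The metallothionein gene Mt2 averaged 13.3 ± 7.10 CPM in siSirt1 and 7.03 ± 3.99 CPM in siCtrl (1.02, SE 0.22, adjusted p = 0.0335). With a line left out, Slc31a1 was called only without line 7 and Mt2 only without line 4 or 7. Atp7a, the pump that loads copper onto secreted enzymes, was not called in siSirt1 (-0.31, adjusted p = 0.495) or siLmod1 (-0.17, adjusted p = 0.0798). In siLmod1 2 of the 8 rose, the copper chaperones Cox17 (0.34, adjusted p = 0.00207) and Atox1 (0.24, adjusted p = 0.00921), both also without each line in turn and in the fit over all 15 libraries. Between the knockdowns, blocked edgeR called 0 higher and 2 lower in siSirt1, Slc31a1 (-0.58, adjusted p = 0.00735) and Cox17 (-0.59, adjusted p = 0.0192). Slc31a1 was called there without each line in turn, Cox17 not without line 1 or 3.

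Of the 5 tested relatives of Sparc, 0 were called in siSirt1 against siCtrl and 2 fell in siLmod1. These were Fstl1, a secreted follistatin-like protein, at 65.6 ± 39.9 CPM in siLmod1 against 104 ± 63.2 CPM in siCtrl (blocked log2 fold change -0.69, edgeR adjusted p = 0.00177), and the testican Spock1 at -0.86 (adjusted p = 0.0087). The blocked fit over all 15 libraries called neither of these, and it called Spock2, as did DESeq2 with the block, as lower in siSirt1 against siCtrl. Smoc1 was higher in siSirt1 than in siLmod1 (0.86, adjusted p = 0.0419) and Spock2 lower (-0.71, adjusted p = 0.0212). Smoc1 was not called with any 1 line left out, and Spock2 was not called without line 1, 3 or 4.

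Markers of another cell type moved alongside these genes in part. The 9 pericyte and smooth muscle markers summed to 1380 to 4570 CPM in siSirt1, 2260 to 5730 CPM in siLmod1 and 2990 to 6430 CPM in siCtrl, mostly through Acta2, which differentiating myoblasts also express. With the block 2 of 8 tested fell in siSirt1 against siCtrl, Abcc9 and Acta2, and 5 fell in siLmod1. Neither Abcc9 nor Acta2 was called in siSirt1 without line 1, and Acta2 was not without line 4. Notch3, Cspg4 and Myh11 averaged higher in siSirt1 than in siCtrl, at 117 against 100, 6.75 against 5.46 and 0.74 against 0.48 CPM, without being called. Between the knockdowns, the blocked fit called Notch3 higher and Acta2 lower in siSirt1 than in siLmod1. Of the 9, 7 averaged at least 1 CPM in each group, among them Abcc9 at 14.8 CPM in siSirt1, 14.8 CPM in siLmod1 and 32.3 CPM in siCtrl, while Kcnj8 was at 0 in 12 of 15 libraries. Among the muscle markers, 1 of 10 fell in siSirt1 against siCtrl (Mymk) and 4 in siLmod1 (Myog, Mymk, Pax7 and Cdh15). These counts were 5 and 4 in DESeq2 with the block and 5 and 2 in the blocked fit over all 15 libraries, and Mymk in siSirt1 was not called with any 1 line left out. Of the fibroblast markers tested, Dcn rose in siSirt1 (1.11 CPM in siSirt1, 0.30 CPM in siLmod1, 0.29 CPM in siCtrl) and Col1a1 fell in siLmod1. Neither was called without line 1, 2 or 3, Dcn was not called by DESeq2 with the block, and Col1a1 was not in the fit over all 15 libraries. Of the endothelial, macrophage and Schwann cell markers, 0 were called against siCtrl, though the blocked fit over all 15 libraries called Cd68, a macrophage marker, higher in siSirt1. The endothelial markers summed to a median of 1.79, 2.28 and 2.39 CPM in siSirt1, siLmod1 and siCtrl, with highest values of 42.4, 92.0 and 105 CPM. The endothelial marker Tek averaged 8.6, 18.8 and 21.1 CPM in the same order. Each of these averages lay above the median of the sum, so a minority of libraries carried it. Tek was called lower in siSirt1 than in siLmod1 with the block, but not over all 15 libraries or without line 2, 3, 4 or 7. The part of these markers in the results above was not tested.

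Across the 15 libraries, with the mean of each line removed, Sparc correlated with Loxl1 at r = 0.794 and with Lox at r = 0.735, and Lox with Loxl1 at r = 0.609. These are descriptions, since the libraries share 5 lines and the genes were chosen for moving together. With line means kept, Sparc and Loxl1 correlated at r = 0.105, and line 4, with the highest Sparc in siCtrl, had the lowest Loxl1 there. The genes most like Loxl1 among 9999 were Sspn, which encodes sarcospan of the dystrophin complex (r = 0.982, and 0.923 with line means kept), Ralgps1 (0.964) and Nol9 (0.961). Sspn averaged 117 CPM in siSirt1, 239 CPM in siLmod1 and 231 CPM in siCtrl. Those most like Sparc were the calpain gene Capn2 (0.965), the adenylate cyclase gene Adcy7 (0.952) and the annexin gene Anxa2 (0.952), and those most like Lox were Derl2, which acts in the degradation of misfolded proteins (0.932), the vitamin C transporter gene Slc23a2 (0.911) and Tmem167 (0.908). With line means kept, the value was 0.10 for Ralgps1 and 0.156 for Derl2, at ranks 3965 and 3079, while Sspn was at rank 2. The ranks also moved without the libraries of line 4. Sspn, Ralgps1 and Nol9 were then at ranks 1, 12 and 3 for Loxl1. Capn2, Adcy7 and Anxa2 were at 13, 26 and 10 for Sparc, and Derl2, Slc23a2 and Tmem167 at 10, 28 and 16 for Lox.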

How the data were processed

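Polyadenylated RNA of 15 libraries was prepared with the TruSeq v2 kit and read at 150 bases, per the labels. The deposited raw counts and TPM values were made by the authors, whose normalized counts were not used; DESeq2 and mm10 are named in the submitters' processing notes, and the aligner, counter and annotation release were not stated. All 15 libraries had the same values in both tables that hold them (tolerance 1e-06). Symbols and coordinates came from GENCODE M21, which matched 48970 of 49315 IDs; the rest held 0.032% of counts.

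From the deposited counts, edgeR 4.0.16 (R 4.3.3) fitted its quasi-likelihood model to the 10 libraries of each comparison, with filterByExpr, TMM scaling and Benjamini-Hochberg adjustment over all genes tested (threshold 0.05), by group alone and with the line as a block. CPM were scaled by TMM over all 15 libraries. The design text gives 5 lines and the titles a replicate number; that the same number in each group marks the same line was inferred and taken as a pairing, since deviations from the group mean correlated at 0.278 to 0.89 in the 15 same-line pairs (median 0.716; lowest for the siSirt1 library of line 1) and at -0.519 to 0.268 in the other 60, over 15642 genes. Nothing in the labels says that the lines came from different animals, so p-values speak of these 5 lines. Intervals beside log2 fold changes are 95% intervals of the fit over libraries; the floor of 3 counts covers counting error only. Alternatives used DESeq2 1.42.0 and limma 3.58.1 on log2(TPM + 0.1) and log2(TPM + 1). Relative to TMM, library totals and TPM moved the median gene in siSirt1 against siCtrl to 0.11 and 0.13 on the log2 scale.

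Members and lists were chosen with earlier results of these data known. Named were all members, Sirt1, Lmod1, from each list up to 4 genes with the largest fold change at a mean of 1 CPM or more, and the 3 genes most correlated with Lox, Loxl1 and Sparc at a mean of 5 CPM or more, without predicted genes. Htra2, elastin, Pcolce, Fn1 and the marker genes were named after their values were seen, for overlap, role or call.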

Additional observations from a re-analysis of the deposited data

Results flagged for a closer look

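Of 36 groups of 5 values examined, 2 held a library far from the others. Chance flags about 1 group in 20 where values are normally distributed, which was not tested for these CPM. Nothing is read from the number of flags. Loxl3 stood at 31.6 CPM in the siSirt1 library of line 7, against 4.77 to 11.4 CPM in the other siSirt1 libraries. Line 7 also had the highest Loxl3 in siLmod1 and siCtrl. Loxl4 stood at 4.91 CPM in the siSirt1 library of line 1, against 1.26 to 2.23 CPM in the other siSirt1 libraries. Without these libraries the log2 fold change of siSirt1 over siLmod1 by group alone was -0.08 for Loxl3 and -0.27 for Loxl4, against 0.61 and 0.19 with them.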

How the results depend on the processing

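The count of genes called changed most with the pairing. In siSirt1 against siCtrl it was 19 by group alone, 1054 with the replicate block, 7 without a filter, 390 with DESeq2, 2016 with DESeq2 and the block, 150 with all 15 libraries and 2530 with these and the block. In siLmod1 against siCtrl it was 17, and in the same order 4430, 6, 357, 4052, 38 and 1427, and 29 with a filter at a mean of 1 CPM. In siSirt1 against siLmod1 it was 229, then 2379, 90, 1150, 3289, 554 and 4210. List genes called in siSirt1 against siCtrl were 0 by group alone, 5 with the block, 2 with DESeq2, 8 with DESeq2 and the block, and 7 with all libraries and the block. In siLmod1 against siCtrl they were 20 with the block, 19 with DESeq2 and the block and 6 with all libraries and the block. In siSirt1 against siLmod1 they were 1 by group alone, 11 with the block, 5 with DESeq2, 16 with DESeq2 and the block, 2 with all libraries, and 17 with all libraries and the block. The cause was not tested.

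Leaving out 1 library gave 3 to 13, 3 to 10 and 54 to 247 genes in the 3 comparisons, with 0, 0 and 0 to 1 list genes. Leaving out line 1, 2, 3, 4 or 7 with the block gave 332, 411, 398, 525 and 580 genes in siSirt1 against siCtrl, 2833, 3758, 3534, 4264 and 3314 in siLmod1 against siCtrl, and 1042, 1771, 946, 1395 and 1662 in siSirt1 against siLmod1. List genes were 3, 2, 2, 3 and 5, then 16, 20, 18, 25 and 19, and then 4, 12, 4, 6 and 7. In siLmod1, Lox passed with the block (-0.66) and with DESeq2 and the block (-0.67), as did Sparc (-0.43 in both). Among the members given a test, the block changed the calls of Lox, Loxl3 and Sparc in siLmod1 against siCtrl, and no call of Loxl1, Loxl4 or Sparcl1 there or of Loxl3, Loxl4 or Sparcl1 in siSirt1 against siLmod1. Loxl1 in siLmod1, at 0.00 by group alone, was at -0.01 with the block, without a filter and with DESeq2 and the block. With 1 library left out, Lox in siLmod1 lay between -0.89 and -0.37, Loxl1 between -0.21 and 0.22, Loxl4 between -0.86 and 0.27 and Sparc between -0.56 and -0.30. With the block and line 1, 2, 3, 4 or 7 left out, Lox was at -0.77, -0.63, -0.58, -0.43 and -0.87, Loxl1 at 0.05, -0.09, 0.04, 0.01 and -0.02, and Sparc at -0.42, -0.47, -0.40, -0.38 and -0.47. In siSirt1 against siLmod1, Loxl3 lay between -0.08 and 0.89 and Loxl4 between -0.27 and 0.86 with 1 library left out. In siSirt1 against siCtrl, Lox, Loxl1 and Sparc stayed negative under every alternative run. They were chosen for a fall in these libraries and were lower in 5 of 5 lines, so nothing is read from that.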
